A study of Mus musculus with 4 samples.

Results

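The solute carriers of the mouse small intestine were taken here as every gene whose symbol begins with Slc and a digit and that had at least 100 unique molecular identifiers (UMIs, 1 per captured messenger RNA molecule) summed over the intestinal single-cell library. This rule gave 209 genes, out of 285 listed genes with such a symbol and 10697 genes of any name with at least 100 UMIs. The UMI total chose the members, so their detection in singlets is not a result. Just inside the limit lay Slc7a15 with 100 UMIs, Slc1a4 with 102 and Slc2a9 with 105, and just outside lay Slc9a5 and Slc29a2 with 94 each and Slc5a4a with 82. The rule also took in Slc9a3r1, Slc9a3r2, Slc7a6os and Slc4a1ap, whose symbols follow the pattern but whose products are not membrane carriers.

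Solute carriers are membrane proteins that move sugars, amino acids, peptides, bile acids, ions, metals, vitamins and nucleosides by facilitated diffusion or by coupling to sodium, proton or other gradients. Absorption across the intestinal epithelium needs one carrier in the apical brush border and often another in the basolateral membrane. Enterocytes arise from crypt stem cells through transit amplifying cells and progenitors, and the set of carriers they hold is known to differ along the length of the intestine, bile acid uptake being a function of the ileum. Other members sit in mitochondria (the Slc25 family) or in the Golgi, where Slc35 carriers bring in nucleotide sugars.

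The study profiled dissociated small intestinal epithelium of C57BL/6J mice by droplet sequencing of the 3′ ends of transcripts, once as single cells (singlets) and once as small clusters of 2 or more cells (multiplets). No treatment or age is given, and lung was profiled in the same way. Each group is 1 library and no label names separate animals, so there is no replicate and no test, and every interval below is a 95% interval that covers counting error only. The intestinal singlets held 5279 barcodes with a median of 8759 UMIs, and the multiplets held 3671 barcodes with a median of 12603 UMIs, the 2 libraries sharing 4 barcodes. Levels are given as CPM, the UMIs of a gene per 1000000 UMIs of a class or library, which for 3′ UMI counts needs no division by transcript length.

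The authors' annotation put the singlets in 10 classes of 88 to 1162 barcodes. How the classes were drawn is not stated, and where these counts drew them, a class set against the others is a description only. The marker lists followed the names: stem markers summed to 14347 CPM in the stem class and at most 5197 in any other, and enterocyte markers to 95773 CPM in enterocytes and at most 10084 elsewhere. The class named progenitor late-2 stood apart from enterocytes in regional genes. Fabp6, the ileal bile acid binding protein, was at 24030 CPM in late-2 and 60.9 in enterocytes, whereas Fabp1, the fatty acid binding protein of the proximal intestine, was at 26.5 and 30214 CPM. Scrublet marked 85 singlets (1.61%) as doublets.

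Members of the bile acid route were highest in progenitor late-2 and members of the sugar route in enterocytes, and the sequences upstream of 5 of them are shown here because their classes of highest level differ so sharply. The sequences come from RefSeq on build GRCm38.p6, whose promoter table matched 160 of the 209 members. Each runs 5′ to 3′ on the strand of its gene, ends at the transcription start or, where GENCODE places an exon further out, before that exon, and has in capitals every match to 6 motifs on either strand. For CDX factors the motif was TTTATNG, for HNF4 factors CAAAGTC and for HNF1 factors GTTAAT. For nuclear receptors it was AGGTCA. The remaining motifs were the box TATAAA, which shares letters with the CDX motif, and, for the zinc finger factors Gata4 and Gata6, the letters AGATAA.
Slc10a2: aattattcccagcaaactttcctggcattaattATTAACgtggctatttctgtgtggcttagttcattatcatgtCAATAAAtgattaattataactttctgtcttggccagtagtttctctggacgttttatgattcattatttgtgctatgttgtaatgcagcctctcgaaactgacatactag
Slc51a: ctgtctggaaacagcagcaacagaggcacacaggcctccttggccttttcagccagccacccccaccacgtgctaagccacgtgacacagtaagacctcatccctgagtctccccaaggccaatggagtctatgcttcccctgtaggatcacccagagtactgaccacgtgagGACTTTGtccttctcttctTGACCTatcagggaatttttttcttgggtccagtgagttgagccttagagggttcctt
Slc51b: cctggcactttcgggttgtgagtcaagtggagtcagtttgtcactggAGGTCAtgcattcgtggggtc
Slc5a1: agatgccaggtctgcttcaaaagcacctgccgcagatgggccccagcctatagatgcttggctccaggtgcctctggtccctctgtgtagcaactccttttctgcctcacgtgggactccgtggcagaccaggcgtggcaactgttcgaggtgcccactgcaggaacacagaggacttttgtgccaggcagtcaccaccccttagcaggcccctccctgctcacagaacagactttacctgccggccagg
Slc2a2: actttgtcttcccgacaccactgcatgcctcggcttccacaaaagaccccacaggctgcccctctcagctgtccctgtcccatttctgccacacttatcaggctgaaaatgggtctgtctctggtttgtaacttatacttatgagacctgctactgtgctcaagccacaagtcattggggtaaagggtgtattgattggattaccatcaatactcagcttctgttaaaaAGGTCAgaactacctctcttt
The Slc10a2 stretch lies at chr8:5105352-5105537, on the minus strand, and held a CDX motif 175 and an HNF1 motif 217 bases before the start. For Slc51a the stretch at chr16:32487880-32488129, also minus, held an HNF4 motif at 77 and a nuclear receptor motif at 58 bases before the start. The Slc51b stretch at chr9:65422956-65423023, minus strand, was 68 bases long and held a nuclear receptor motif 203 bases before the start. Distances are to the RefSeq start. GENCODE begins the Slc51b and Slc10a2 genes further out, right where their printed stretches end, so their motifs lie nearer to that start. For Slc2a2, at chr3:28697653-28697902 on the plus strand, the nuclear receptor motif lay 21 bases before the start. No motif searched was present in the Slc5a1 stretch, at chr5:33103969-33104218 on the plus strand. These letters are common. The nuclear receptor motif was in 14.0% of all 32851 windows of 250 upstream bases, in 17.3% of the 52 windows of members led by enterocytes and in 2 of the 12 windows of members led by late-2. The HNF4 motif was in 3.84% of all windows and 4 of those 52, the HNF1 motif in 6.43% and 6 of 52, and the CDX motif in 9.81% and 4 of 52. The HNF4, HNF1 and CDX motifs were each in 1 of the 12 windows of members led by late-2. The printed Slc10a2 and Slc51b stretches, of 186 and 68 bases, are shorter than these windows. Of all windows, 9.99% held the Gata4 motif and 12.4% the box.

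Enterocytes gave the most to solute carriers. The members took up 1.71% of the UMIs of enterocytes, 1.13% in each late progenitor class, 0.826% in stem cells, 0.766% in goblet cells and 0.162% in Paneth cells. Over the whole libraries the share was 0.853% in singlets and 0.817% in multiplets. A median of 60 of the members was detected in an enterocyte barcode against 25 in a stem barcode, at median depths of 11039 and 6199 UMIs. The Paneth value stands beside a sum of 564955 CPM for 7 Paneth markers in that class, and without all marker genes in the class totals the Paneth share was 0.387% and the enterocyte share 1.90%.

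A gene was counted as led by a class when its CPM there was over 1.5 times that of the next class. By this rule 101 of the 209 members (48.3%) were led by some class, where the share over all 10697 genes was 28.1%. With at least 20 UMIs required in the leading class the count was 96 members, against 24.5% of all genes. Enterocytes led 46 members, or 22%, where they led 5.04% of all genes. Progenitor late-2 led 13 members (6.22%, all genes 1.51%), goblet cells 11 (5.26%, all genes 2.94%) and stem cells 7 (3.35%, all genes 1.73%). Enteroendocrine cells led 13 members (6.22%, all genes 5.91%) and tuft cells 11 (5.26%, all genes 6.93%), both shares near those of all genes. No member was led by transit amplifying cells, early progenitors, late-1 progenitors or Paneth cells, which led 3.40%, 0.103%, 0.131% and 0.393% of all genes. Marker genes took 58.2% of Paneth UMIs, which lowers the CPM of other genes there. With class totals without marker genes, 103 members were led by a class (all genes 28.2%), some of them by classes that led none here. Set directly against stem cells, enterocytes had 97 members higher past 1.5-fold (all genes 20.7%) and 75 lower (all genes 51.0%).

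**Figure D1:**
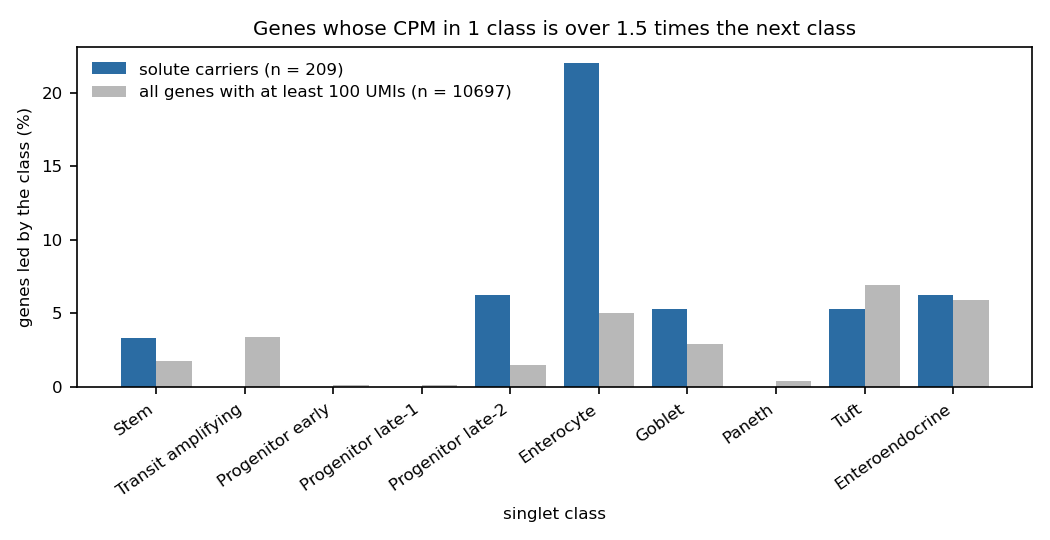
Share of genes led by each singlet class (%), by class, for the 209 solute carriers (blue bars) and for all genes with at least 100 UMIs (grey bars). The enterocyte bars stand at 22% and 5.04%, the late-2 bars at 6.22% and 1.51%.

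Enterocytes led 6 of the 8 members on the list of sugar carriers, beside 5.04% of all genes, and tuft cells led 1. Slc5a1, the sodium-coupled glucose and galactose transporter of the brush border (chromosome 5, 33104219 to 33162870, plus strand), was at 824 CPM in enterocytes (785 to 865), 230 in late-1, 185 in late-2 and 58.3 in enteroendocrine cells. Its crypt level was not 0: 68.1 CPM in stem cells, 51.3 in transit amplifying cells and 57.3 in early progenitors, against 10.2 in goblet, 3.47 in Paneth and 1.42 in tuft cells. Enterocytes thus exceeded the next class 3.59-fold (3.34 to 3.85). Slc2a2, the basolateral facilitative glucose transporter (chromosome 3, 28697903 to 28731359, plus strand), had a narrower profile. Its 338 CPM in enterocytes (313 to 364) was 13.5 times the 25 CPM of late-1 (11.4 to 16.1), and the class after that, late-2, was at 1.80 CPM.

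The remaining sugar carriers followed with lower counts. Slc2a5, the fructose transporter, was at 51.4 CPM in enterocytes and 20.7 in enteroendocrine cells, and at 6.02 in late-1, the highest of the other classes. Slc5a11, a sodium-coupled inositol transporter, was at 116 CPM in enterocytes and 15.7 in late-1. Slc5a4b was at 50.4 CPM in enterocytes and 10.4 in enteroendocrine cells, with the caution that its near copy Slc5a4a could share reads with it. Slc37a4, the glucose 6-phosphate carrier of the endoplasmic reticulum, was at 128 CPM in enterocytes and 60.8 in late-1. Slc2a1, the glucose carrier of many growing cells, was led by tuft cells, at 45.3 CPM against 27.0 in goblet cells and 3.99 in enterocytes.

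Apical amino acid and peptide carriers were spread over the absorptive classes. Enterocytes led 4 of the 7 members on this list (all genes 5.04%), and 6 of the 7 were higher in enterocytes than in stem cells past 1.5-fold (all genes 20.7%). Slc15a1, the proton-coupled peptide transporter, was at 76.9 CPM in enterocytes, 19.8 in enteroendocrine cells and 15.2 in late-1, and below 5 CPM in the other classes. Slc6a20a, a proline carrier, was at 195 CPM in enterocytes, 98.0 in late-2 and 69.3 in late-1. Slc7a9, the light chain of the cystine and dibasic amino acid carrier, did not separate the absorptive classes, at 225, 219 and 207 CPM in enterocytes, late-2 and late-1. Its heavy chain Slc3a1 was at 77.4 CPM in enterocytes and near 46 in both late progenitor classes, 46.4 in late-1 and 45.7 in late-2. The glutamate and aspartate carrier Slc1a1 had the opposite order, 148 CPM in late-2 against 87.2 in late-1 and 5.99 in enterocytes.

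Slc6a19, the main sodium-coupled carrier for neutral amino acids (chromosome 13, 73679745 to 73704865, minus strand), was led by enterocytes and also found in enteroendocrine cells. It was at 85.3 CPM in enterocytes (73.0 to 99.1), 51.8 in enteroendocrine cells and 13.3 in late-1, and below 5 CPM in all other classes. The enteroendocrine value came from 55 UMIs in 31 of 175 barcodes (17.7%, 12.4 to 24.2), the largest barcode holding 6. In goblet cells, at a higher median depth of 8905 against 5655 UMIs, 1 of 985 barcodes (0.102%) had a Slc6a19 UMI. Of the 31 enteroendocrine barcodes, 30 also held a UMI of the granin genes Chga or Chgb, as did 117 of all 175. All 31 remained once the barcodes marked as doublets were left out, and the source of the Slc6a19 UMIs was not tested. Several enterocyte genes were not found in these 175 barcodes: Slc2a2, Slc28a1 and Alpi each had 0 UMIs, which at 3 counts of the total allows a share of barcodes with a UMI of up to 1.71%. Others were. Sis was at 284 CPM, against 26.2 in goblet cells and 5.58 to 88.6 in the stem, transit amplifying and early progenitor classes. Fabp1 was at 60.2 CPM, like its 55.9 in goblet cells and 38.2 to 87.4 in those crypt classes.

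Carriers of amino acid exit were led by enterocytes in 5 of 5 cases, beside 5.04% of all genes. Slc7a7 and Slc7a8 are light chains that pair with the heavy chain Slc3a2, Slc16a10 carries aromatic amino acids, and Slc43a2 carries large neutral ones. Slc7a7 was at 268 CPM in enterocytes and 127 in late-1, and Slc3a2 at 264 and 145. Slc43a2 was at 181 CPM in enterocytes, 3.26 times late-1, and Slc16a10 at 137 CPM, 3.72 times late-1. Slc7a8 had the lowest enterocyte level of the list, 82.8 CPM against 49.4 in late-1.

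The carriers known for feeding growing cells ran the other way, 7 of 7 being lower in enterocytes than in stem cells past 1.5-fold, beside 51.0% of all genes. Slc1a5, a glutamine exchanger, was at 113 CPM in stem cells, 96.2 in goblet cells, 64.9 in transit amplifying cells and 6.99 in enterocytes. Slc7a5, the leucine carrier that also pairs with Slc3a2, was at 15.3 CPM in stem cells and 0.499 in enterocytes. Slc38a1 was led by enteroendocrine cells at 127 CPM, with 81.4 in stem cells and 14.0 in enterocytes. Slc38a2 differed least, from 98.7 CPM in stem cells to 63.9 in enterocytes among the classes other than Paneth cells.

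Progenitor late-2 carried the bile acid route. Slc10a2, the apical sodium-coupled bile acid transporter of the ileum (chromosome 8, 5083219 to 5105351, minus strand), was at 114 CPM there (98.0 to 131), 25.2 times the 4.52 CPM of late-1 (17.0 to 38.3). It was at 0.998 CPM in enterocytes, below 1 CPM in the crypt, goblet and Paneth classes, and at 0 UMIs in tuft and enteroendocrine cells. Late-2 held 78.1% of all its singlet UMIs in 3.85% of the barcodes. Slc51a and Slc51b, the 2 chains of the basolateral organic solute transporter (chromosome 16, 32474504 to 32487879, and chromosome 9, 65412714 to 65422955, both minus strand), were broader. Slc51a was at 747 CPM in late-2, 286 in late-1, 253 in enterocytes and 27.4 in early progenitors. Slc51b was at 350, 113, 159 and 11.2 CPM in the same classes.

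Other members led by late-2 carry anions, choline, short chain acids and iron. Slc13a1, a sodium-coupled sulfate carrier, was at 289 CPM in late-2 and 143 in enterocytes, and Slc13a2, its dicarboxylate relative, at 64.9 and 35.4. Slc5a8, which takes up lactate and short chain fatty acids, was at 63.7 CPM in late-2, 11.4 in late-1 and 0.499 in enterocytes. Slc40a1, ferroportin, the basolateral iron exporter, was at 64.3 CPM in late-2, 11.3 in late-1 and 3.99 in enterocytes. Slc34a2, an apical phosphate carrier, was at 28.9 CPM in late-2 and 18.1 in late-1 and at 2.00 in enterocytes. Slc44a4, a choline carrier family member, was at 165 CPM in late-2 against 52.9 in late-1, and the mitochondrial carrier Slc25a24 at 159 against 86.1. The 3 members led most strongly by late-2 at 20 CPM or more were Slc10a2, Slc40a1 and Slc5a8, the latter 2 at 5.70 and 5.57 times late-1.

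**Figure D2:**
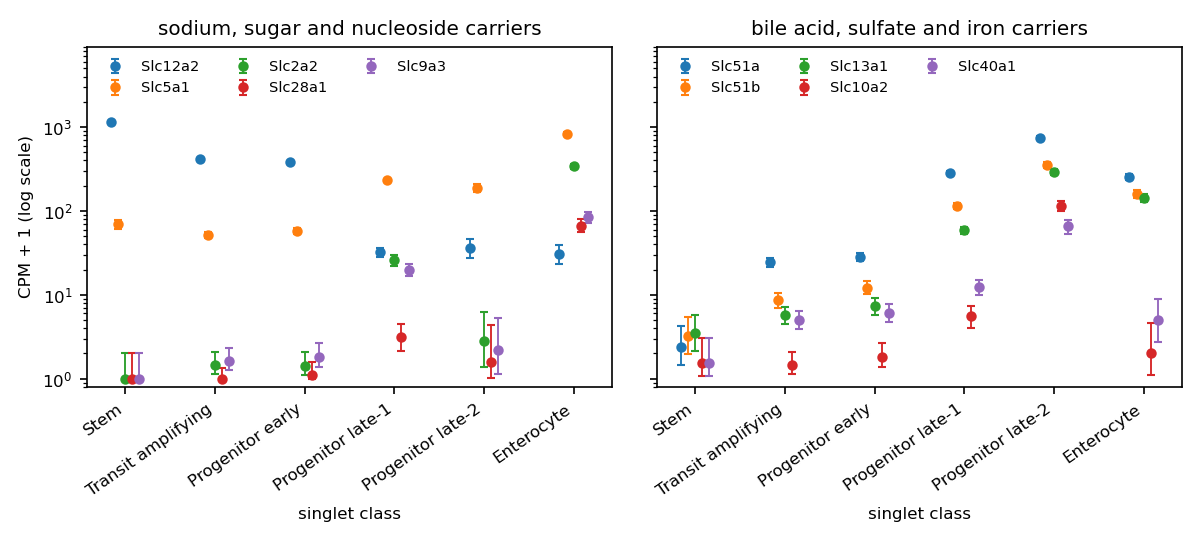
Level (CPM + 1, log scale) of 5 ion, sugar and nucleoside carriers (left) and 5 bile acid, sulfate and iron carriers (right) in 6 singlet classes, with 95% Poisson intervals. Slc2a2, Slc28a1 and Slc9a3 sit highest in enterocytes and below 3 in late-2 and the crypt classes, whereas the 5 carriers on the right sit highest in late-2.

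Of the 14 carriers of sodium, protons, chloride and bicarbonate, 6 were higher in enterocytes than in stem cells past 1.5-fold (all genes 20.7%) and 3 were lower (all genes 51.0%). Some class led 8 of them (all genes 28.1%), enterocytes 3. Slc12a2, the basolateral sodium, potassium and chloride cotransporter that loads chloride for secretion, was the member with the most UMIs outside the mitochondrial family, 15493 in all. It was at 1148 CPM in stem cells (1113 to 1183), 413 in transit amplifying cells, 382 in early progenitors and 276 in goblet cells. It then stood at 31.0 CPM in late-1, 34.9 in late-2, 29.4 in enterocytes and 26.4 in Paneth cells. The enterocyte value came from 59 UMIs in 10 of 191 barcodes, 20 of them (33.9%) in 1 barcode. The brush border sodium and proton exchanger Slc9a3 had the reverse profile, at 82.8 CPM in enterocytes, 18.8 in late-1, 1.20 in late-2 and 0 UMIs in stem cells. Slc26a6, an apical anion exchanger, was at 323 CPM in enterocytes, 127 in late-1, 103 in late-2 and 0.558 in stem cells. Slc26a3, its chloride and bicarbonate exchanging relative, was at 174, 112, 84.8 and 11.4 CPM. Slc4a4, a basolateral sodium bicarbonate carrier, was not led by any class, its highest value being 118 CPM in late-2.

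Stem cells led 2 other members at 20 CPM or more. Slc1a2, a glutamate carrier best known from astrocytes, was at 38.2 CPM in stem cells and 8.04 in transit amplifying cells (4.75-fold, 3.61 to 6.28). Slc14a1, a urea channel, was at 25.9 and 15.1 CPM. Slc27a2, a fatty acid carrier and acyl-CoA synthetase, had high values at both ends, 162 CPM in enterocytes and 107 in stem cells, with 8.42 in late-2. Slc27a4, the fatty acid carrier of the small intestine, was at 241 CPM in enterocytes, 62.5 in late-1 and 7.25 in stem cells.

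Metal carriers made up 24 members, of which 11 were led by a class (all genes 28.1%) and 4 of these by enterocytes (all genes 5.04%). Slc31a1, the copper importer, was at 251 CPM in enterocytes and between 31.2 and 121 elsewhere. Slc39a5, a basolateral zinc importer, was at 224, 197 and 187 CPM in enterocytes, late-2 and late-1 and 7.80 to 110 in the other classes. Slc11a2, the apical iron importer, stayed between 1.88 and 27.9 CPM in every class, with no class past the limit. Slc39a7 and Slc30a7, zinc carriers of the secretory pathway, were led by goblet cells, at 167 and 67.7 CPM. Slc30a2, a vesicular zinc carrier, was found in 48.9% of the 88 Paneth barcodes, 26.2% of enterocyte barcodes and 17.9% of stem barcodes, but the Paneth depth was far higher (median 25594.5 UMIs). Its CPM was 24.3 in Paneth cells and 34.3 in stem cells. Marker genes took 58.2% of Paneth UMIs and 1.65% of stem UMIs, so these CPM values do not rank the classes.

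Among carriers of vitamins, nucleosides and organic ions, single members stood out. Slc28a1, a sodium-coupled pyrimidine nucleoside carrier, had the highest ratio of enterocytes to the next class among members at 20 CPM or more, at 65.9 CPM against 2.11 in late-1 (31.2-fold, 18 to 58.7). Slc46a1, the proton-coupled folate carrier, was at 57.9 CPM in enterocytes and 8.13 in late-1. Slc7a15, an amino acid carrier relative with only 100 UMIs, was at 35.4 and 3.92 CPM (9.05-fold, 5.70 to 14.8). Slc23a3, of the ascorbate carrier family, was at 50.8 CPM in stem cells, 45.3 in tuft cells and 0.998 in enterocytes. Of the 8 vitamin carriers 4 were higher and 3 lower in enterocytes than in stem cells, and of the 18 carriers of nucleosides, monocarboxylates and organic ions 9 were higher and 7 lower, where 20.7% of all genes were higher and 51.0% lower. Slc16a1, the monocarboxylate carrier MCT1, ranged from 40.9 to 65.7 CPM over the crypt and absorptive classes.

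Of the secretory classes, goblet, tuft and enteroendocrine cells led some members and, with marker genes in the class totals, Paneth cells none. Goblet cells led Slc12a8 (chromosome 16, 33517328 to 33664135, plus strand), a carrier placed in the chloride cotransporter family, at 275 CPM (264 to 286) against 55.5 in enteroendocrine cells, 19.9 in Paneth cells and at most 32.6 in the rest. They also led Slc50a1, a sugar efflux carrier, at 320 CPM against 142 in tuft cells, and Slc17a9, the vesicular nucleotide carrier, at 21.8 CPM against 3.47 in Paneth cells. Also led by goblet cells were 3 Golgi nucleotide sugar carriers, Slc35a1 for sialic acid at 170 CPM, Slc35a2 for galactose at 102 CPM and Slc35c1 for fucose at 88.6 CPM. The Slc35 family was not particular to goblet cells. Of its 20 members, 7 were led by a class (all genes 28.1%), 4 of them by enterocytes (all genes 5.04%). The family summed to 1008 CPM in enterocytes and 973 in goblet cells. Tuft cells led Slc26a2, a sulfate carrier, at 234 CPM against 112 in enteroendocrine cells, Slc4a7, a bicarbonate carrier, at 149 against 79.3 in enterocytes, and Slc29a3, a lysosomal nucleoside carrier, at 39.7 against 10.4. The tuft values rest on 165, 105 and 28 UMIs.

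Enteroendocrine cells led Slc18a1, the vesicular monoamine carrier that fills amine granules (chromosome 8, 69037711 to 69089235, minus strand), at 96.9 CPM (79.1 to 118) against 7.36 in Paneth cells and 5.55 in goblet cells. The plasma membrane serotonin carrier Slc6a4 lay elsewhere, at 47.7 CPM in late-1 and 35.4 in enterocytes. Enteroendocrine cells also led Slc25a4, a mitochondrial ADP and ATP carrier of postmitotic tissues, at 183 CPM against 65.2 in tuft cells. Its relative Slc25a5 was the most abundant member, 1805 CPM over all singlets, from 1256 in goblet cells to 3307 in enterocytes with Paneth cells at 165. Slc25a3, the mitochondrial phosphate carrier, came next at 1495 CPM. Together the 36 Slc25 members summed to 4230 CPM of the 8527 CPM of all members, and to 7572 CPM in enterocytes against 3883 in stem cells. Of the 36, 12 were led by a class, a share near the 28.1% of all genes.

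**Figure D3:**
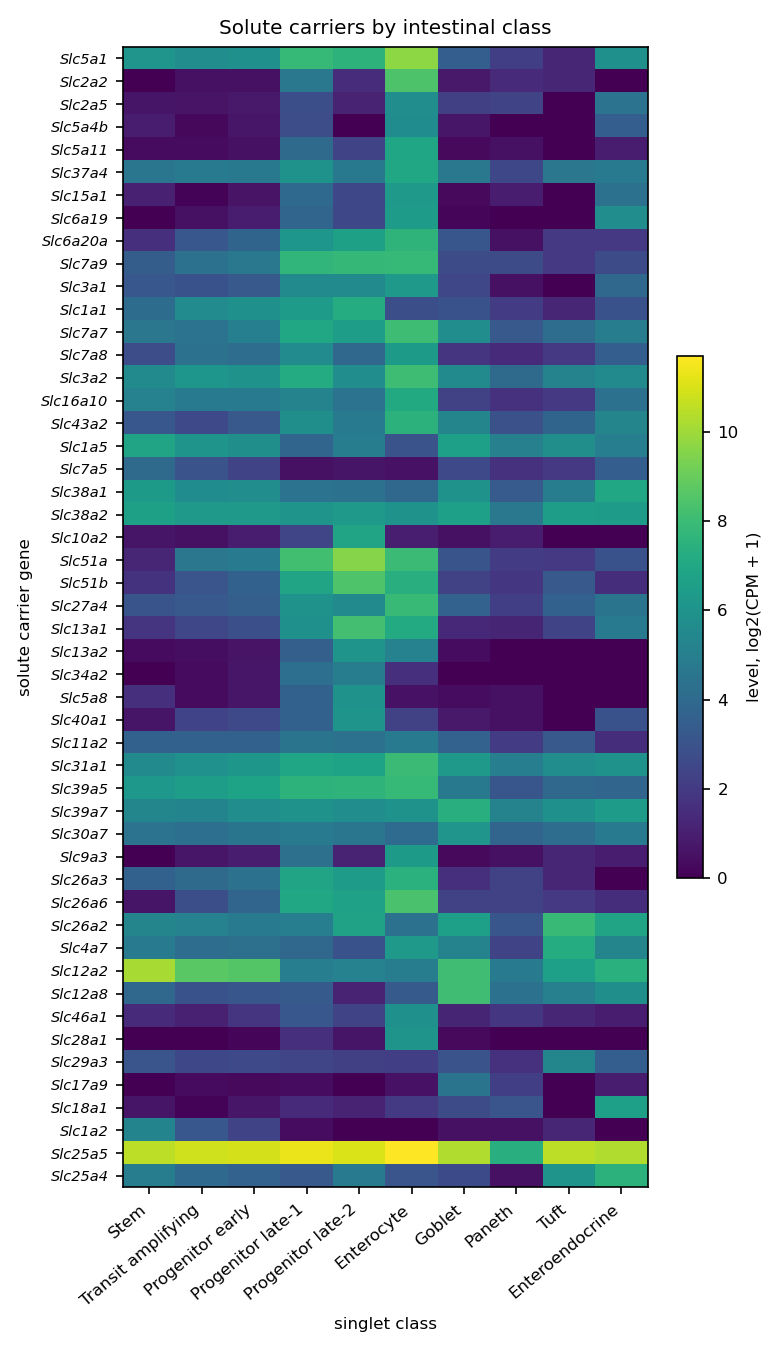
Level of 50 solute carriers, log2(CPM + 1) on the color scale, in the 10 singlet classes. Enterocytes are brightest for the sugar and amino acid exit carriers, late-2 for the bile acid carriers, stem cells for Slc12a2 (1148 CPM) and goblet cells for Slc12a8 (275 CPM).

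The chains of one carrier were alike in profile over the 10 classes in some pairs and not in others. As a description over classes that share a library, Pearson's r of log2(CPM + 1) was 0.96 for Slc51a with Slc51b, 0.88 for Slc3a1 with Slc7a9, 0.92 for Slc3a2 with Slc7a8, 0.88 for Slc3a2 with Slc7a7 and 0.90 for the zinc carriers Slc30a5 and Slc30a6. For Slc3a2 with Slc7a5, the light chain of growing cells, it was -0.42, and with the light chain Slc7a6 it was -0.52. For the sugar carriers Slc5a1 and Slc2a2 it was 0.59. Among other genes of absorption, 12 of 12 brush border enzymes were higher in enterocytes than in stem cells past 1.5-fold (all genes 20.7%) and 8 of 12 were led by enterocytes (all genes 5.04%). Of the 4 aquaporins counted, which are water channels, 2 were higher and 2 lower. Of the 11 transcription factors counted, enterocytes led 1, Maf (117 CPM), and late-2 led 1, Nr1h4, the bile acid receptor, at 167 CPM against 54.8 in late-1 and 30.4 in enterocytes. Gata4, a factor of the proximal intestine, was at 1.20 CPM in late-2 and 42.4 in enterocytes.

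Thinned to 1000 UMIs per barcode, with none left out, barcodes of different classes can be set side by side at equal depth. Slc5a1 had a UMI in 58.1% of enterocyte barcodes (50.8 to 65.2) and 0.609% of goblet barcodes, a class that should lack it. Without thinning these were 99.0% and 7.31%. Slc12a2 had one in 65.1% of stem barcodes and 1.57% of enterocyte barcodes. Slc2a2 was at 30.4% in enterocytes and 0.985% in late-2, with 0 of 587 stem barcodes, which at 3 counts of the total allows up to 0.511%. Slc10a2 was at 8.87% in late-2 (5.34 to 13.7) and 0 of 191 enterocytes, which by the same rule allows up to 1.57%. Without thinning, 36.5% of late-2 barcodes and 2 of the 191 enterocytes held it. Slc12a8 was at 24.1% in goblet cells against 1.53% in stem cells, and Slc18a1 at 12.0% in enteroendocrine cells against 0.914% in goblet cells.

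Between the libraries most members differed little. Multiplet CPM divided by singlet CPM lay within 1.5-fold for 195 of the 209 members, higher for 10 (4.78%, all genes 1.42%) and lower for 4 (1.91%, all genes 3.87%). Those shares are over the 11674 genes that reached 50 UMIs in one library or the other, and over the 10697 genes with at least 100 singlet UMIs they were 0.851% and 2.66%. All 10 higher members were led by late-2 or enterocytes. They were 6 of the 13 led by late-2, where 9.94% of all genes led by late-2 were higher. The rest were 4 of the 46 led by enterocytes, where the share of all such genes was 5.19%. From late-2 came Slc34a2 at 2.38 (2.00 to 2.84), Slc10a2 at 2.32 (2.00 to 2.71), Slc5a8 at 1.84, Slc13a2 at 1.71, Slc51b at 1.56 and Slc51a at 1.52. From enterocytes came Slc7a15 at 2.54 (2.01 to 3.22), Slc5a4b at 1.83, Slc15a1 at 1.66 and Slc6a19 at 1.62. In levels, Slc10a2 was at 5.07 CPM in singlets and 11.8 in multiplets, and Slc51a at 89.1 and 136. The 4 lower members were the stem-led Slc1a2 at 0.444 (0.357 to 0.549) and Slc14a1 at 0.645, and Slc25a47 at 0.512 and Slc16a12 at 0.649, the last 2 with no leading class and with 129 and 138 singlet UMIs. Lower members were thus 2 of the 7 led by stem cells, a share near the 28.6% of all genes led by stem cells.

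The median ratio followed the leading class. It was 1.39 for the 13 members led by late-2 (all genes led by late-2, 1.11), 1.16 for the 46 led by enterocytes (all genes 1.06), 0.931 for enteroendocrine cells (0.867), 0.909 for goblet cells (0.95), 0.875 for tuft cells (0.898) and 0.699 for stem cells (0.787). Over all members it was 0.953, beside 0.933 over all genes. Singlets enter both the class and the ratio, so this is a description. The composition of the libraries differed alongside: enterocyte markers summed to 8526 CPM in multiplets and 6364 in singlets, Paneth markers to 58917 and 29849, stem markers to 1654 and 3184, and Fabp6 was at 2129.6 and 1223 CPM. The part of these differences in the ratios was not tested, and more cells of a type cannot be told apart from more RNA per cell. Scaling by TMM shifts the median log2 ratio of all genes by 0.10. It gave 15 higher members (all genes 2.23%) and 2 lower (all genes 2.85%). This added Slc2a2, Slc28a1, Slc6a20a, Slc1a4 and Slc16a5 and dropped Slc14a1 and Slc16a12. With each barcode weighted equally 21 were higher (all genes 2.65%), Slc5a1 among them at 1.52 (1.31 in sums), and Slc7a15 reached 4.47.

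**Figure D4:**
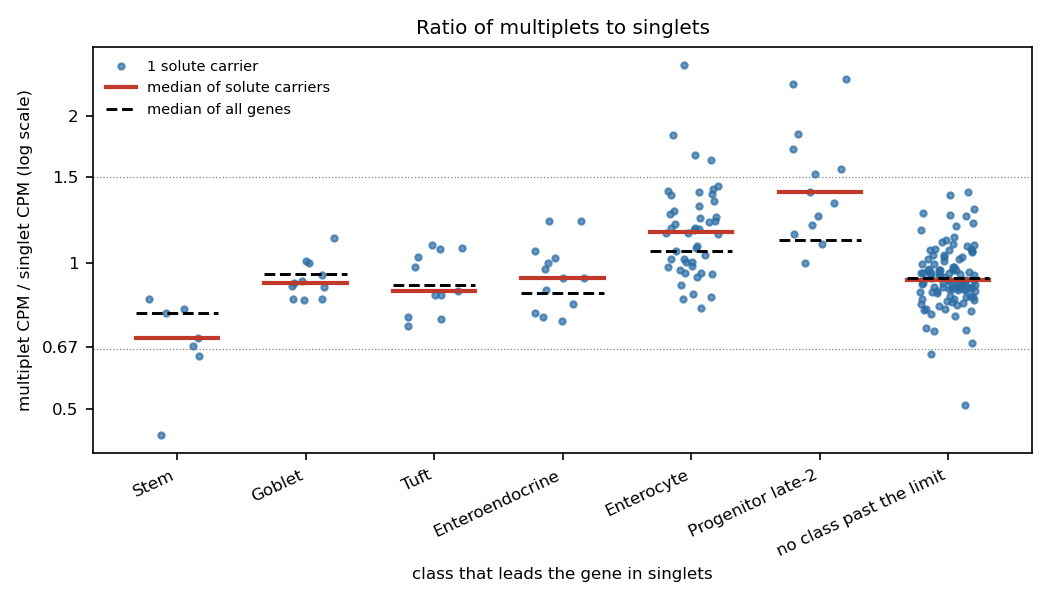
Ratio of multiplet to singlet CPM (log scale) of each of the 209 solute carriers, by the class that leads it in singlets, with the median of solute carriers (red) and of all genes (dashed), and dotted lines at 1.5-fold. Members led by late-2 have a median of 1.39 and members led by stem cells 0.699.

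The highest well-counted members in multiplets, those of at least 20 CPM in the higher library, were Slc51b, Slc51a, Slc6a20a (1.44), Slc2a2 (1.41), Slc13a1 (1.39), Slc43a2 (1.37), Slc5a1 (1.31, 1.26 to 1.36) and Slc25a24 (1.25). The lowest were Slc29a1, a nucleoside carrier, at 0.760, Slc44a3 at 0.768, Slc35a4 at 0.786, Slc25a38 at 0.796, Slc19a1, the reduced folate carrier, at 0.802, and Slc12a2 at 0.803 (0.785 to 0.822). Slc1a5 at 0.827 and Slc39a7 at 0.839 completed that set. At 1000 UMIs per barcode, Slc5a1 was in 12.1% of multiplets and 8.83% of singlets, Slc10a2 in 1.06% and 0.417%, Slc2a2 in 2.53% and 1.46%, and Slc12a2 in 23.3% and 26.3%. Slc12a8 was in 5.15% of multiplets and 5.25% of singlets, shares whose intervals overlapped.

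The shares of barcodes with a second carrier differed by pair. Slc51a had a UMI in 81.6% of the 114 singlets with Slc10a2 (73.2 to 88.2) and in 23.7% of the 5165 without. In multiplets it was in 91.0% of the 210 barcodes with Slc10a2 and 35.5% of those without. Slc51a was also in 85.8% of singlets with Slc2a2 and 21.4% of those without. Slc2a2 was in 6.14% of singlets with Slc10a2 (2.50 to 12.2) and 5.46% without, and in 12.9% and 10.1% of multiplets, intervals that overlapped in both libraries. The other sugar carrier, Slc5a1, was in 74.6% of singlets with Slc10a2 and 36.8% without, and in 84.8% and 50.2% of multiplets. It was in 95.8% of the 289 singlets with Slc2a2 and 34.2% of those without, and in 96.3% of the 375 multiplets with Slc2a2 and 47.1% without. Slc6a19 was in 44.3% of singlets with Slc2a2 and 1.76% without, and Slc15a1 in 40.8% and 1.36%. The median depths were 9163.5 UMIs in singlets with Slc10a2 against 8752 without, and 10633 with Slc2a2 against 8667 without. In multiplets they were 13106 against 12558 for Slc10a2, and 11584 against 12784 for Slc2a2. The shares are without thinning, and shares of barcodes rise with depth.

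**Figure D5:**
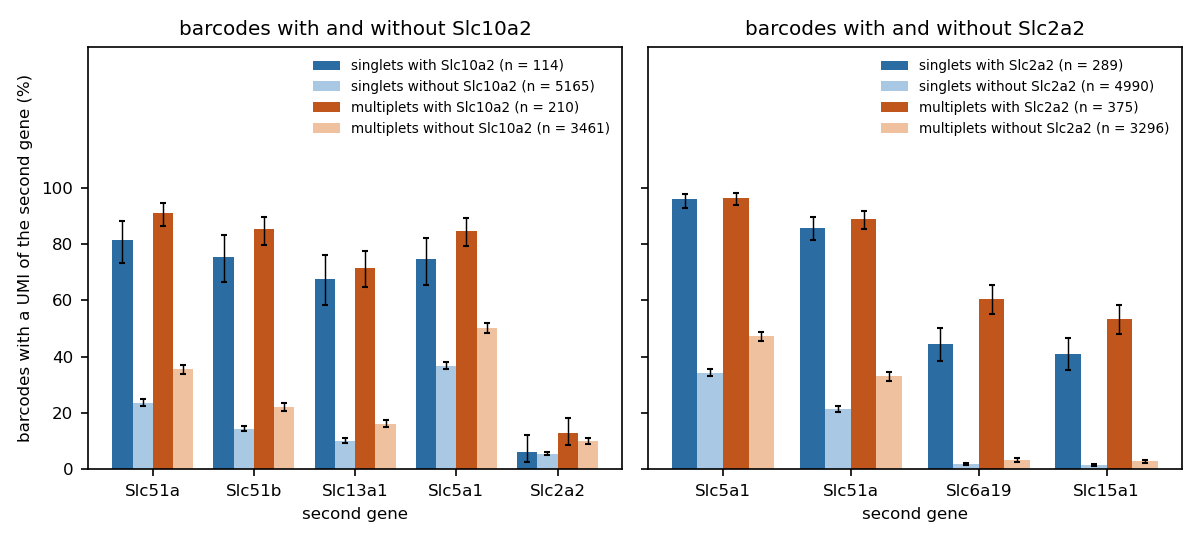
Share of barcodes (%) with a UMI of a second carrier, among singlets (blue) and multiplets (orange) with (dark) and without (light) Slc10a2 (left) or Slc2a2 (right), with exact 95% intervals. Slc51a is in 81.6% of singlets with Slc10a2 and 23.7% without, Slc5a1 in 74.6% and 36.8%, and Slc2a2 in 6.14% and 5.46%. Singlets without the carrier come from all classes.

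In the lung singlets 197 of the members were listed and 12 were not, Slc10a2, Slc51b and Slc28a1 among them. Of these 83 were higher in intestine past 1.5-fold (42.1%, all genes 34.5%) and 57 lower (28.9%, all genes 30.1%), as a description, since the members were chosen on intestinal counts. The largest contrast the other way was Slc34a2, the phosphate carrier of type II pneumocytes, at 951 CPM in lung and 3.79 in intestine.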

How the data were processed

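The deposited tables hold raw UMI counts per gene and barcode, made with Cell Ranger 4.0.0 on mm10 per the submitters' processing notes, and class labels for singlet barcodes. Counting settings are not given in the sources used here. The singlet table listed 15610 genes and 47764845 UMIs, and the multiplets held 50645279 UMIs. UMIs were summed over barcodes and divided by class or library totals (Python 3.11.15, numpy 2.4.6, scipy 1.17.1), with exact Poisson and Clopper-Pearson intervals. A fold against a class at 0 used a floor of 3 counts. Multiplet ratios needed at least 50 UMIs in either library. Scrublet (scanpy 1.11.5) marked doublets, which stayed in. The scripts were tested on simulated data. With 1 library per group no test was possible.

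The genes named were the members of fixed function lists, the 3 with the highest ratio per class at 20 CPM or more, the 8 highest and 8 lowest multiplet ratios at 20 CPM or more, the 10 highest levels, the members nearest the UMI limit, and their partners. The members and lists were chosen with earlier results of these data known. Slc14a1, Slc16a12, Slc25a47 and a few others outside that rule were named after their values were seen. Immune, fibroblast and endothelial markers summed to 33.9, 0.0837 and 1.26 CPM in singlets and 36.1, 0 and 1.20 CPM in multiplets. The alternatives tried were other scalings, barcode weights, limits, depths and doublet removal.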

Additional observations from a re-analysis of the deposited data

Results flagged for a closer look

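The multiplet to singlet ratio of 2 members pointed in opposite directions in the 2 tissues, past 1.5-fold in each. Slc14a1, the urea channel led by stem cells in intestine, was at 0.645 in intestine and 2.01 in lung (1.35 to 3.04). Slc16a12, of the monocarboxylate carrier family, was at 0.649 in intestine and 1.90 in lung (1.35 to 2.70). The difference between tissues was not tested, since each ratio compares 1 library with 1 library, and the lung values rest on 87 and 111 multiplet UMIs. Under TMM scaling the intestinal ratios were 0.693 for Slc14a1 and 0.698 for Slc16a12, inside the 1.5-fold limit, and Slc16a12 was not counted with at least 200 UMIs required.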

How the results depend on the processing

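No member past the 1.5-fold limit changed direction under any alternative run. Among the named members within the limit, TMM scaling took the ratios of Slc25a3 from 0.935 to 1.005, Slc35b1 from 0.956 to 1.03, Slc35b2 from 0.942 to 1.01, Slc39a5 from 0.952 to 1.02 and Slc9a3r1 from 0.983 to 1.06, across 1. Of the counts, medians and shares, 60 values stayed within the set limits and 33 moved, and of the ratios of named members 179 stayed and 41 moved by more than their counting interval. With each barcode weighted equally 21 members were higher in multiplets (all genes 2.65%), the 10 first counted among them. At a 2-fold limit 3 were (all genes 0.497%). The members lower in multiplets numbered 2 under TMM scaling (all genes 2.85%), 2 with at least 200 UMIs (1.68%) and 1 at a 2-fold limit (1.11%). At 2 times the next class, 54 members were led by some class (all genes 14.9%). Enterocytes led 28 (all genes 2.89%), late-2 7 (0.626%) and goblet cells 7 (1.73%). Tuft cells led 3 (all genes 3.42%), enteroendocrine cells 6 (3.12%) and stem cells 3 (0.608%). Stem cells led 4 members with at least 200 UMIs (all genes 1.47%). Median ratios under TMM were 1.24 for enterocytes, 1.498 for late-2, 0.977 for goblet cells, 0.940 for tuft cells, 1.001 for enteroendocrine cells and 0.752 for stem cells. With barcodes weighted equally they were 1.27 for enterocytes, 1.51 for late-2, 0.952 for goblet cells, 0.937 for tuft cells and 0.655 for stem cells. Shares of barcodes rise with depth: at 1500 UMIs and without thinning, Slc5a1 was in 71.7% and 99.0% of enterocytes, Slc12a2 in 79.6% and 99.1% of stem cells and Slc12a8 in 33.7% and 90.9% of goblet cells. Without thinning, Slc2a2 was in 91.6% of enterocytes, Slc10a2 in 36.5% of late-2 and Slc18a1 in 33.1% of enteroendocrine cells. Leaving out marked doublets, or each gene's highest barcode, moved no count past 1.5 times. In all, 2 alternatives were chosen after seeing the data, a minimum of 20 UMIs in the leading class and class totals without marker genes. Under them 96 and 103 members were led by a class (all genes 24.5% and 28.2%). Without marker genes, enterocytes led 48 (all genes 5.81%), late-2 12 (1.33%) and goblet cells 13 (3.13%). Tuft cells led 8 (all genes 6.08%), enteroendocrine cells 11 (5.86%), stem cells 7 (1.66%) and other classes the rest. No paired analysis was possible because each group is 1 library. Few barcodes limit the rare classes most: tuft and Paneth values rest on 112 and 88 barcodes.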
